A study of Mus musculus with 18 samples.

Results

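The mouse line RAW264.7, which resembles macrophages, had been transduced with a lentivirus that makes mouse CITED1 when doxycycline is given, and the comparison described here asks what induction of CITED1 did in these cells when no interferon-gamma was given. The members are the genes with a row for this pair of groups in the authors' deposited table of significant differences, whichever group is named first. They are 22 named genes of the 5455 named genes that the table lists for any pair among the 6 groups of samples. The cells with CITED1 induced were construct cells (labelled p2080) given doxycycline at 100 ng/mL, set against construct cells without doxycycline, with 3 samples in each group. The other 4 groups, also of 3 samples, were construct cells given both doxycycline and interferon-gamma at 200 U/mL, construct cells given interferon-gamma alone, parental RAW cells given doxycycline, and untreated parental RAW cells. All groups share the RAW264.7 background, and all construct groups share the integrated vector. Whether the construct cells were a pool or a clone, how long they were treated, and whether the samples of a group were separate cultures is not stated in the labels.

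CITED1 belongs to a small family of nuclear proteins that do not bind DNA themselves. They join DNA-bound transcription factors to the histone acetyltransferase CBP and its relatives, and can raise the output of a target gene in this way, or lower it by taking docking domains that other factors need. In macrophages a related family member, CITED2, is known as a restraint on inflammatory gene expression, and the docking domains in question are also used by STAT, NF-kB and hypoxia-inducible factors.

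Apart from Cited1 itself, induction was followed by few and mostly modest differences. The authors' deposited table called 11 genes higher and 11 lower, 22 in all, which is 0.403% of the 5455 listed genes (0.202% in each direction). Pde1b, a phosphodiesterase that breaks down cyclic nucleotides when calcium and calmodulin are bound, rose 5.51-fold, and the aminoacylase gene Acy1 rose 2.6-fold in the authors' deposited table. The fatty acid binding protein gene Fabp4 fell 2.29-fold, the neutrophil chemokine gene Cxcl2 2.5-fold and the lymphatic growth factor gene Vegfc 2.13-fold, all in the authors' deposited table. Without Cited1, the called folds ranged up to 5.51 among the 10 higher genes, with a median of 2.59, and up to 3.64 among the 11 lower genes, with a median of 2.31.

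The table holds 1 fold change, 1 summed level and 1 q-value for each row and no value for any single sample. Levels are therefore given as 1 FPKM value per group (fragments scaled by transcript length and library size), rebuilt from the fold and the sum, with no SD, no n and no depth, and whether samples of the groups overlapped cannot be read. In bulk RNA, fewer cells that express a gene and less of its RNA per cell cannot be told apart. FPKM is scaled by transcript length, so levels of different genes can be set side by side. A call means a q-value, the authors' adjusted p, of 0.05 or less together with the 2-fold difference that every row of the table shows. A gene with no row for a pair has no call in the table there, and is not shown to be equal in both groups. A missing row can hide a large difference. In construct cells Cited1 stood at 168 FPKM with doxycycline and 0.703 FPKM without it. Cited1 has no row against parental cells given the same treatment, nor for doxycycline in parental cells. Those pairs cannot all be close to equal. Why such rows are missing was not tested, and genes undetected in one group could be absent from the members. The count of 5455 is of genes called in at least 1 pair of groups, most of them in comparisons with interferon-gamma. The labels do not state how many genes the authors tested.

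The members were mostly weakly expressed. Of the 22 genes, 16 reached 1 FPKM in either group, 5 reached 5 FPKM and 6 stayed under 1 FPKM in both, and the median of the higher of both levels was 2.34 FPKM. The rows just inside the 2-fold limit were an unnamed locus at 2.08-fold, Padi2 at 2.12-fold, and Vegfc and Gm20634 at 2.13-fold in the authors' deposited table. Near the limit but without a row were Fam131a, with 2.46 FPKM with doxycycline and 1.20 FPKM without it, the predicted pseudogene Gm14328, with 4.28 FPKM with doxycycline and 8.64 FPKM without it, and Nexn, with 1.25 FPKM with doxycycline and 2.49 FPKM without it. The first 2 of these lay past 2-fold, so a fold of that size did not by itself give a row.

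**Figure D1:**
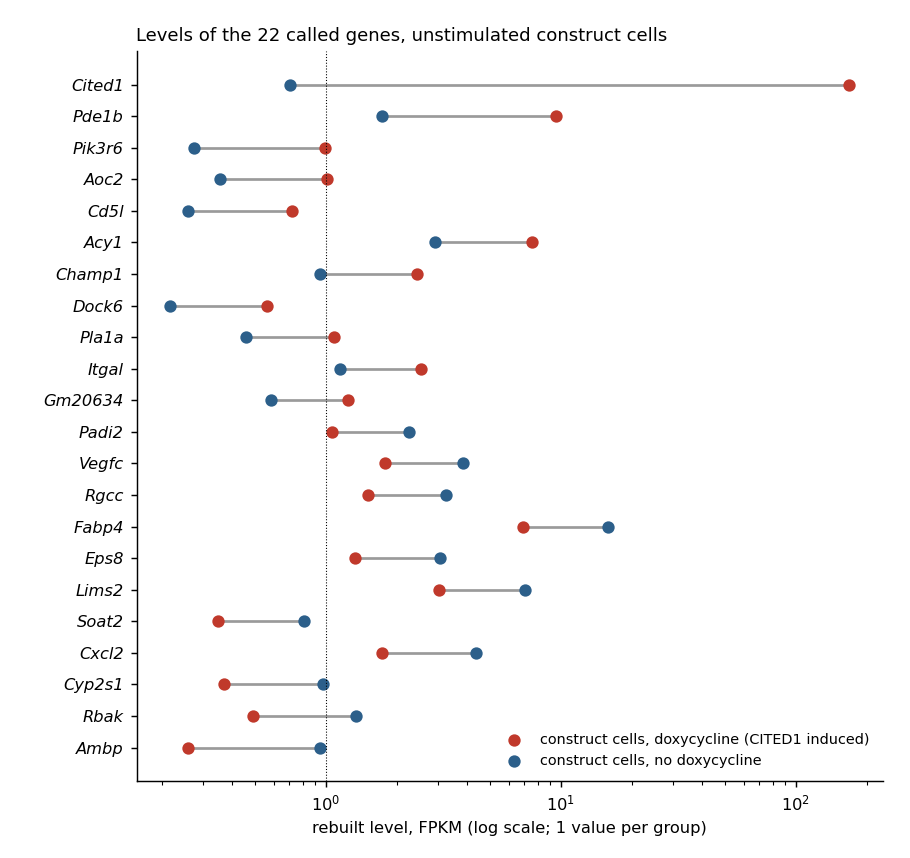
Rebuilt levels of the 22 called genes in unstimulated construct cells, in FPKM on a log scale, with 1 value per group: red points are cells with doxycycline and blue points cells without it, and the dotted line marks 1 FPKM. Cited1 spans 168 and 0.703 FPKM, while 17 of the 22 stay under 5 FPKM in both groups.

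Promoter sequences are shown for 4 members whose values recur below: Pde1b and Acy1, the most abundant of the higher genes after Cited1, and Cxcl2 and Vegfc, which the table called in opposite directions with and without interferon-gamma. They are RefSeq windows of 250 bases before to 50 bases after an annotated start on mouse build GRCm38.p6, read on the strand of the gene, and 13 of the 22 members matched such a window (17 windows in all). Capitals mark matches of the motifs searched on both strands, which were the STAT site TTCNNNGAA, the AP-2 site GCCNNNGGC, the hypoxia core ACGTG, the cAMP response element TGACGTCA and the AP-1 site TGANTCA, and, by name alone, the interferon-stimulated response element and the NF-kB site. Positions count from 1 at the 5′ end of the window.
Pde1b, chr15:103502784-103503083, plus strand: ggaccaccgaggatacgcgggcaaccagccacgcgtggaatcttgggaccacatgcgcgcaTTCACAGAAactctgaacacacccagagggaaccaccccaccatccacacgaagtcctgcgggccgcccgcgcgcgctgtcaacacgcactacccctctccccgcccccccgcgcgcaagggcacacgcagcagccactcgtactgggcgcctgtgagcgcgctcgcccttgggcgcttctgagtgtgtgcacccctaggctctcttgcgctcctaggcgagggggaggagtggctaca
Acy1, chr9:106438187-106438486, minus strand: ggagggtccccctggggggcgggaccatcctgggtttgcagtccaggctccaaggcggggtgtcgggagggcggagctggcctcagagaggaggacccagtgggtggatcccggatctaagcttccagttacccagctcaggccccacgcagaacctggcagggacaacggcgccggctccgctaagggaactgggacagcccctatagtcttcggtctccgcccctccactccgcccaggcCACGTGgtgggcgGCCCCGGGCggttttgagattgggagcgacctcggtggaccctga
Cxcl2, chr5:90903649-90903948, plus strand: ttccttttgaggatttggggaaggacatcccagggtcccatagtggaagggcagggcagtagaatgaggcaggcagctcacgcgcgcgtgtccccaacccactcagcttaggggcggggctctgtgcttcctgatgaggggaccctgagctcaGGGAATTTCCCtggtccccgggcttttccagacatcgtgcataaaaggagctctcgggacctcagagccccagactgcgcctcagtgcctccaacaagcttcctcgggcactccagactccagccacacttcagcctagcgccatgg
Vegfc, chr8:54077282-54077581, plus strand: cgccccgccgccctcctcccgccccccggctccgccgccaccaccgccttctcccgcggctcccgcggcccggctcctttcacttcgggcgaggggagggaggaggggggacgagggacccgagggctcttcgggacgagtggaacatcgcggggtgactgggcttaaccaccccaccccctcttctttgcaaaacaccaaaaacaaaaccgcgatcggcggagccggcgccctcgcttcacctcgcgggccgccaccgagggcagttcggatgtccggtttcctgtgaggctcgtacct
The Pde1b window holds a STAT site at bases 62 to 70. The Acy1 window holds an AP-2 site at bases 256 to 264 and an E-box-like stretch in which the hypoxia core overlaps itself on both strands, at bases 243 to 248. The Cxcl2 window holds an NF-kB site that also overlaps itself, at bases 154 to 164, and in the Vegfc window none of these letters occur. STAT sites were in 2 of the 17 member windows against 8.30% of all 32851 windows, AP-2 sites in 4 against 16.6%, hypoxia cores in 3 against 19.6%, and NF-kB sites in 3 against 4.51%. The interferon-stimulated response element was in 1 against 3.44% of all windows, and the AP-1 site and the cAMP response element were in 0, against 7.81% and 1.79%. The window with the interferon-stimulated response element is another window of Pde1b, which is not printed here. A match describes these letters and shows neither binding nor a cause.

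Cited1 (entry ENSMUST00000050551, chromosome X), the induced gene, stood at 168 FPKM with doxycycline and 0.703 FPKM without it, a fold of 239 with a q of 0.000387 in the authors' deposited table. Reads from the construct and from the cells' own gene cannot be told apart in this value. The level without doxycycline was low but listed, and leak of the construct was not tested. With interferon-gamma, Cited1 stood at 86.7 FPKM with doxycycline and 11.5 FPKM without it. It has no row in any pair with parental cells, so no level could be rebuilt there. This does not show that parental and construct levels were alike.

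Among genes of intracellular signalling, Pde1b had the largest fold. Its main coding transcript (entry ENSMUST00000023132, chromosome 15) stood at 9.55 FPKM with doxycycline and 1.73 FPKM without it, 5.51-fold higher with a q of 0.000387 in the authors' deposited table. A second entry of the gene, annotated as a target of nonsense-mediated decay, was called the same way at 2.40 FPKM with doxycycline and 0.365 FPKM without it (6.56-fold in the authors' deposited table). Both transcripts share sequence, so the split of reads between them is uncertain. A further coding entry of Pde1b stood at 0.552 FPKM without doxycycline and has no rebuilt level with it. In parental cells, which lack the construct, the main transcript stood at 3.20 FPKM with doxycycline and 2.24 FPKM without it, a ratio of 1.43 that has no row. Of the 4 unstimulated groups, the construct cells with doxycycline thus held the most of the main Pde1b transcript. The authors' deposited table also called this transcript 2.98-fold higher there than in doxycycline-treated parental cells.

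Pik3r6, which encodes a regulatory subunit of the leukocyte kinase PI3K-gamma, stood at 0.996 FPKM with doxycycline and 0.275 FPKM without it (3.63-fold, q = 0.0220 in the authors' deposited table). In parental cells this entry stood at 1.22 FPKM with doxycycline and 0.625 FPKM without it, a ratio of 1.96 without a row. That was the largest ratio in parental cells among the called entries of the higher members. A second coding entry of Pik3r6 was more abundant in parental cells and went the other way, at 2.44 FPKM with doxycycline and 3.13 FPKM without it. It has no rebuilt level in unstimulated construct cells. Whether doxycycline itself has a part in the Pik3r6 call was not tested. Dock6, an exchange factor for the GTPases Rac and Cdc42, was higher at 0.561 FPKM with doxycycline and 0.218 FPKM without it (2.57-fold, q = 0.0484 in the authors' deposited table), both low levels. A second coding entry of Dock6 stood at 0.361 FPKM without doxycycline and has no rebuilt level with it, so the gene as a whole cannot be compared. Rgcc, a regulator of the cell cycle induced by complement, fell to 1.51 FPKM with doxycycline, against 3.24 FPKM without it (2.14-fold, q = 0.00395 in the authors' deposited table).

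Other genes of cyclic nucleotide signalling had no row. Of 32 genes listed for this pathway, 11 appear in the table and Pde1b was the single call. The 8 with at least 1 FPKM and no row had a median log2 ratio of 0.01 (4 higher, 4 lower), against -0.01 over all genes without a call. Pde2a, the most abundant phosphodiesterase of the list, stood at 15.8 FPKM with doxycycline and 17.0 FPKM without it, Pde4b at 1.53 FPKM with doxycycline and 1.54 FPKM without it, and the kinase subunit gene Prkacb at 19.2 FPKM with doxycycline and 15.7 FPKM without it. Crem, a cAMP-responsive transcription factor, had the lowest ratio, with 1.18 FPKM with doxycycline and 1.75 FPKM without it. Its log2 ratio of -0.57 in construct cells was close to that of -0.55 with doxycycline in parental cells.

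Genes of lipid handling were called in both directions. Fabp4 (chromosome 3), an intracellular carrier of fatty acids found in adipocytes and macrophages, fell to 6.90 FPKM with doxycycline, against 15.8 FPKM without it (2.29-fold, q = 0.000387 in the authors' deposited table). Parental cells held more of it and showed no such difference, with 53.7 FPKM with doxycycline and 53.4 FPKM without it. Soat2, which esterifies cholesterol, was lower at 0.347 FPKM with doxycycline and 0.805 FPKM without it (2.32-fold, q = 0.0264 in the authors' deposited table), and Cyp2s1, a cytochrome P450, at 0.370 FPKM with doxycycline and 0.970 FPKM without it (2.62-fold, q = 0.000747). Pla1a, a secreted phospholipase that acts on phosphatidylserine, was higher at 1.08 FPKM with doxycycline and 0.455 FPKM without it (2.36-fold, q = 0.0381 in the authors' deposited table). In parental cells Pla1a stood at 0.228 FPKM with doxycycline and 0.340 FPKM without it, on the other side of equality.

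Around Fabp4, the related carrier gene Fabp5 was the most abundant and stood at 231 FPKM with doxycycline and 363 FPKM without it, a log2 ratio of -0.65 with no row. The scavenger receptor gene Cd36, a fatty acid transporter, stood at 10.1 FPKM with doxycycline and 13.6 FPKM without it, whereas Fabp3 stood at 4.78 FPKM with doxycycline and 2.90 FPKM without it. The 10 genes of the list of fatty acid binding proteins and targets of the lipid receptors PPAR and LXR with at least 1 FPKM had a median log2 ratio of -0.02, with 4 higher and 6 lower and Fabp4 as the only call, and with at least 5 FPKM the median was -0.24. Of the phospholipase and lipid mediator genes, 10 had a median of 0.08, Pla1a included. Alox5, the lipoxygenase that starts leukotriene synthesis, had the lowest ratio among these, with 8.43 FPKM with doxycycline and 12.9 FPKM without it. Sterol and fatty acid synthesis genes lay close to equality, with 6 genes at a median of 0.02 and between -0.07 and 0.12.

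Enzymes that act on amino acids, amines and arginine residues gave 3 calls. Acy1 (chromosome 9), which frees amino acids from their N-acetylated forms, rose to 7.55 FPKM with doxycycline, against 2.91 FPKM without it (2.6-fold, q = 0.000387 in the authors' deposited table). Parental cells held 2.17 FPKM with doxycycline and 2.19 FPKM without it, so the doxycycline-treated construct cells stood above the other 3 unstimulated groups. Aoc2, a copper amine oxidase, was higher at 1.02 FPKM with doxycycline and 0.355 FPKM without it (2.86-fold, q = 0.0412 in the authors' deposited table). Padi2, which converts arginine residues of histones and other proteins to citrulline, fell to 1.06 FPKM with doxycycline, against 2.25 FPKM without it (2.12-fold, q = 0.000387 in the authors' deposited table), and stood at 0.943 FPKM with doxycycline and 1.24 FPKM without it in parental cells. The polyamine genes Odc1 and Sat1 had no row, with Odc1 at 76.7 FPKM with doxycycline and 86.5 FPKM without it and Sat1 at 87.8 FPKM with doxycycline and 78.4 FPKM without it. Over the 9 amino acid and amine genes of at least 1 FPKM, which include both calls, 5 were higher and 4 lower with a median log2 ratio of 0.13.

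Adhesion genes were called in both directions as well. Itgal (chromosome 7), the alpha chain of the leukocyte integrin LFA-1, rose to 2.54 FPKM with doxycycline, against 1.15 FPKM without it (2.21-fold, q = 0.00241 in the authors' deposited table). A second Itgal entry without a row stood at 4.76 FPKM with doxycycline and 2.48 FPKM without it, a ratio of 1.92, and another at 0.685 FPKM with doxycycline and 0.523 FPKM without it. In parental cells the called entry stood at 1.76 FPKM with doxycycline and 1.87 FPKM without it. Lims2, an adaptor that links integrins to the actin cytoskeleton, fell to 3.04 FPKM with doxycycline, against 7.01 FPKM without it (2.31-fold, q = 0.000387 in the authors' deposited table), with 8.51 FPKM with doxycycline and 8.73 FPKM without it in parental cells. Eps8, an actin-capping protein, fell to 1.33 FPKM with doxycycline, against 3.07 FPKM without it (2.30-fold, q = 0.0320 in the authors' deposited table). Parental cells held Eps8 at 1.27 FPKM with doxycycline and 1.19 FPKM without it, so here it was the untreated construct cells that stood apart.

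Of the leukocyte integrin list, 8 genes had at least 1 FPKM, 6 of them higher and 2 lower, with a median log2 ratio of 0.14, the called Itgal included. Itgax, the alpha chain known as CD11c, came next to Itgal with 3.73 FPKM with doxycycline and 2.04 FPKM without it. Itgam, the alpha chain known as CD11b, stood at 44.0 FPKM with doxycycline and 42.4 FPKM without it, and Itga5, a fibronectin receptor chain, at 14.8 FPKM with doxycycline and 20.8 FPKM without it.

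Secreted proteins made up 4 further calls. Cxcl2 (chromosome 5) fell to 1.74 FPKM with doxycycline, against 4.34 FPKM without it (2.5-fold, q = 0.000747 in the authors' deposited table). It stood at 3.85 FPKM with doxycycline and 5.14 FPKM without it in parental cells, a ratio of 0.75 in the same direction without a row. Vegfc (chromosome 8) fell to 1.79 FPKM with doxycycline, against 3.82 FPKM without it (2.13-fold, q = 0.000387 in the authors' deposited table). In parental cells it stood at 2.95 FPKM with doxycycline and 2.99 FPKM without it. Ambp, the precursor of the lipocalin alpha-1-microglobulin, was lower at 0.259 FPKM with doxycycline and 0.942 FPKM without it (3.64-fold, q = 0.0113 in the authors' deposited table), and parental cells held 2.66 FPKM with doxycycline and 2.83 FPKM without it. Cd5l, a scavenger protein that macrophages secrete, was higher at 0.719 FPKM with doxycycline and 0.258 FPKM without it (2.78-fold, q = 0.00966 in the authors' deposited table).

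Other chemokine and cytokine genes had no row, and their ratios went both ways. Of the 11 cytokine and CC chemokine genes with at least 1 FPKM, 5 were higher and 6 lower, with a median log2 ratio of -0.09. The monocyte chemokine gene Ccl2 stood at 16.0 FPKM with doxycycline and 11.0 FPKM without it, whereas Ccl4 stood at 73.4 FPKM with doxycycline and 90.6 FPKM without it. Tnf stood at 13.3 FPKM with doxycycline and 15.4 FPKM without it, and Il1rn, the antagonist of the interleukin-1 receptor, at 20.5 FPKM with doxycycline and 30.9 FPKM without it. Around Vegfc, the 8 genes of the VEGF and angiogenic factor list without a row had a median of -0.21, with 3 higher and 5 lower. Vegfa, the main vascular growth factor, stood at 6.65 FPKM with doxycycline and 10.1 FPKM without it, and Vegfb at 25.1 FPKM with doxycycline and 24.2 FPKM without it. Summed over its 2 entries, Vegfa stood at 11.7 FPKM with doxycycline and 15.6 FPKM without it, a log2 ratio of -0.41.

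The remaining members were genes of nuclear proteins, a noncoding transcript and unnamed loci. The call of Champ1, a zinc finger protein of chromosome alignment, rests on a minor entry at 2.43 FPKM with doxycycline and 0.947 FPKM without it (2.57-fold, q = 0.0497 in the authors' deposited table). The main Champ1 entry stood at 14.0 FPKM with doxycycline and 14.9 FPKM without it, so the main entry did not move with the call. Rbak, a KRAB zinc finger protein that binds the retinoblastoma protein, was lower at 0.489 FPKM with doxycycline and 1.34 FPKM without it (2.74-fold, q = 0.0162 in the authors' deposited table), while a retained-intron entry of the gene has a level of 1.04 FPKM with doxycycline and none that could be rebuilt without it. Gm20634, a processed transcript without an assigned function, was higher at 1.24 FPKM with doxycycline and 0.584 FPKM without it (2.13-fold, q = 0.00716 in the authors' deposited table). Another 2 entries without a gene name were lower, and the authors' deposited table gives their folds as 2.21 and 2.08.

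Construct cells with and without doxycycline were also compared by the authors under interferon-gamma, a pair that shares no group with the unstimulated one. The contrast in Cited1 was smaller there, at 7.55-fold against 239-fold in unstimulated cells in the authors' deposited table. Interferon-gamma alone was called 16.33-fold higher in Cited1 than no treatment, so the 2 pairs are not like for like. There 719 of the 5455 listed genes were called (13.2%), 373 higher (6.84%) and 346 lower (6.34%). Of the 11 members higher in unstimulated cells, 8 have levels in both interferon-gamma groups, and all of these 8 were on the higher side. Of these, 6 were also called higher, namely Cited1, Pde1b, Pik3r6, Cd5l, Pla1a and Gm20634, which is 54.5% of the 11 and 1.61% of the 373. Of the 11 lower members, 8 have both levels, 4 on the lower and 4 on the higher side. Padi2 and Soat2 were called lower there too, which is 18.2% of the 11 and 0.578% of the 346, and Cxcl2 and Vegfc were called higher, 18.2% of the 11 and 0.536% of the 373. The median log2 ratio with interferon-gamma was 1.30 over the 7 higher members other than Cited1 and -0.06 over the 8 lower members, beside 0.06 over all 3084 genes of at least 1 FPKM. Of those 3084 genes, 54.0% were on the higher side.

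Among the higher members, Pde1b reached 32.2 FPKM with both treatments, against 8.56 FPKM with interferon-gamma alone (3.77-fold in the authors' deposited table). In the authors' deposited table Pla1a was 4.45-fold higher, at 2.13 FPKM with both treatments and 0.479 FPKM with interferon-gamma alone, and Pik3r6 4.6-fold, at 1.64 FPKM with both and 0.357 FPKM with interferon-gamma alone. Cd5l stood at 3.17 FPKM with both treatments and 1.29 FPKM with interferon-gamma alone, and Gm20634 at 4.51 FPKM with both and 1.87 FPKM with interferon-gamma alone. The called entries of these genes thus kept their direction, and those of Pde1b, Cd5l and Gm20634 did so at clearly higher levels. With interferon-gamma alone, Pla1a stood little above its untreated 0.455 FPKM and Pik3r6 above its untreated 0.275 FPKM. Neither of these has a row for interferon-gamma, with or without doxycycline. The second coding entry of Pik3r6 stood at 6.86 FPKM with both treatments and has no rebuilt level with interferon-gamma alone. Pik3r6 as a whole therefore cannot be compared there. Itgal stood at 42.9 FPKM with both treatments and 23.1 FPKM with interferon-gamma alone, a ratio of 1.85 that has no row. The integrin chain was thus far more abundant under interferon-gamma in both groups, with a ratio near its unstimulated one of 2.21.

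Cxcl2 stood at 12.03 FPKM with both treatments and 4.41 FPKM with interferon-gamma alone and was called 2.73-fold higher in the authors' deposited table, the opposite of its call in unstimulated cells. Vegfc likewise stood at 8.999 FPKM with both treatments and 3.03 FPKM with interferon-gamma alone and was called 2.97-fold higher in the authors' deposited table. Across the 4 construct groups, both genes were lowest with doxycycline alone and highest with both treatments. Padi2 kept its direction, with 1.58 FPKM with both treatments and 3.33 FPKM with interferon-gamma alone (2.10-fold lower), as did Soat2, with 0.765 FPKM with both and 1.72 FPKM with interferon-gamma alone (2.25-fold lower in the authors' deposited table). Fabp4 was nearly gone under interferon-gamma, with 0.653 FPKM with both treatments and 0.568 FPKM with interferon-gamma alone, and Rgcc stood at 84.8 FPKM with both and 63.8 FPKM with interferon-gamma alone, neither with a row. Lims2 and Cyp2s1 stayed on the lower side without a row, with Lims2 at 15.2 FPKM with both treatments and 19.6 FPKM with interferon-gamma alone, and Cyp2s1 at 1.85 FPKM with both and 2.30 FPKM with interferon-gamma alone.

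**Figure D2:**
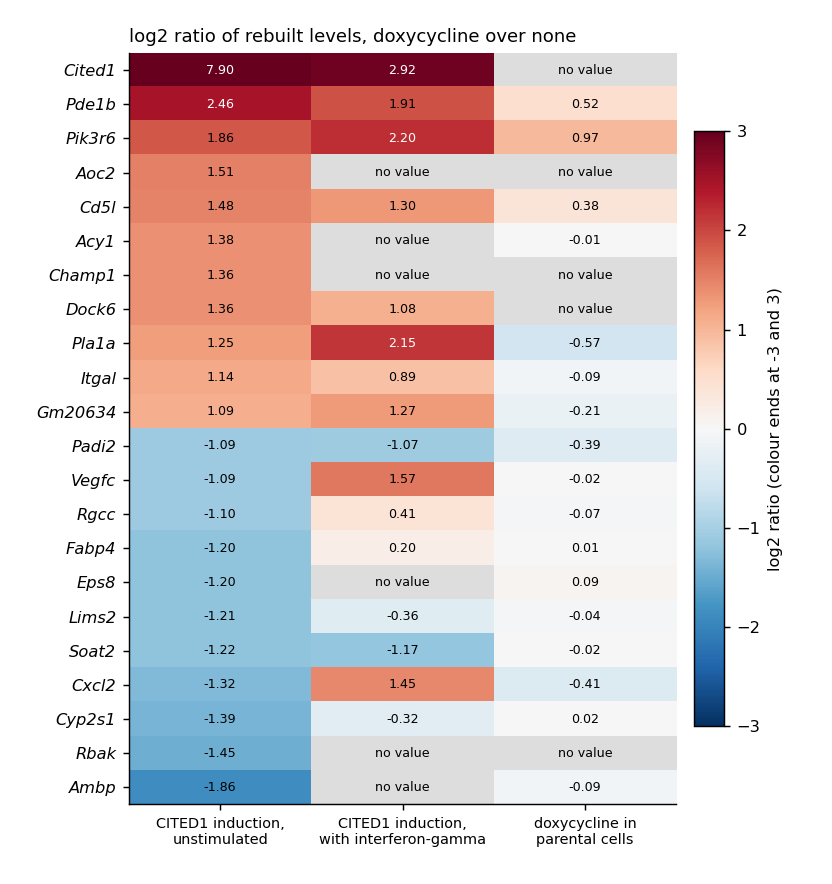
Log2 ratio of rebuilt levels, doxycycline over no doxycycline, of the 22 called genes (rows) in construct cells without interferon-gamma, in construct cells with it and in parental cells without it; grey cells have no rebuilt value. The higher members stay red in the middle column wherever they have a value, the lower members split there, with Cxcl2 at 1.45 and Vegfc at 1.57, and most parental values lie near 0.

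With doxycycline in parental cells, which lack the construct, 49 genes were called (0.898% of 5455), 6 higher (0.110%) and 43 lower (0.788%), and 0 of the 22 members were among them. At that background share a count of 0 among so few genes does not show that both sets of calls differ. The 7 higher members with parental levels had a median log2 ratio of -0.01 there, between -0.57 for Pla1a and 0.97 for the called entry of Pik3r6, with 3 on the higher and 4 on the lower side. The 10 lower members with parental levels had a median of -0.03, between -0.41 for Cxcl2 and 0.09 for Eps8, with 7 on the lower and 3 on the higher side. Cited1, Aoc2, Champ1, Dock6 and Rbak have no row and no rebuilt ratio in parental cells, so for these no size can be given for the inducer alone.

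Levels could be rebuilt in both groups for 3837 genes that have no row in this pair. Over the 3447 of these that reached 1 FPKM in either group, the median log2 ratio was -0.01, with 1664 genes higher and 1773 lower, with the 5th percentile at -0.33 and the 95th at 0.32. Within 1.25-fold were 89.6%, and within 1.5-fold 98.0%. At 1.5-fold or more were 32 genes on the higher side (0.928%) and 37 on the lower side (1.07%), or 8 higher and 17 lower with a pseudocount of 1 FPKM. The spread narrowed with level, with an SD of the log2 ratio of 0.30 over 327 genes at 1 to 2 FPKM and 0.12 over 104 genes at 100 FPKM or more. These genes are in the table because some other pair called them, mostly an interferon-gamma comparison, so they are no sample of all expressed genes.

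**Figure D3:**
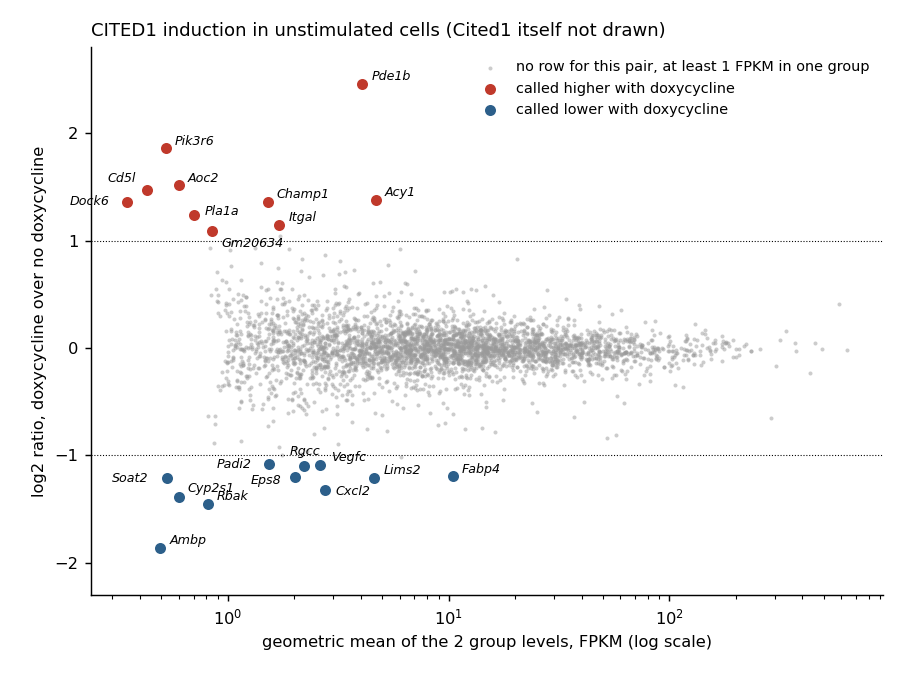
Log2 ratio, doxycycline over no doxycycline, against the geometric mean of both group levels in FPKM (log scale) in unstimulated construct cells: grey points are the 3447 genes without a row and at least 1 FPKM in one group, red and blue points the called genes, and dotted lines mark 2-fold. Called genes lie outside the dotted lines, Pde1b farthest at 2.46, and mostly at low levels, while grey points narrow to the right. Cited1 at 7.90 is not drawn.

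The same could be done for doxycycline in parental cells, and 2926 genes have levels in all 4 unstimulated groups and no row in either pair. Their log2 ratios had an SD of 0.20 in construct cells and 0.16 in parental cells. At 1.25-fold or more were 281 genes (9.60%) in construct cells and 158 (5.40%) in parental cells. At 1.5-fold or more, 17 were on the higher and 33 on the lower side in construct cells, against 10 and 13 in parental cells. With no values per sample, whether this difference in spread exceeds the error between samples was not tested.

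**Figure D4:**
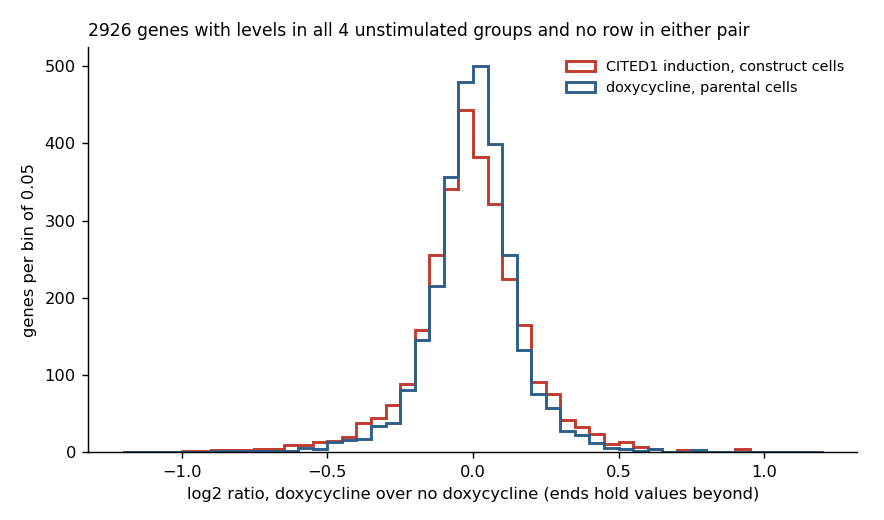
Number of genes by log2 ratio, doxycycline over no doxycycline, in bins of 0.05, for 2926 genes with levels in all 4 unstimulated groups and no row in either pair: the red outline is construct cells and the blue outline parental cells, with values beyond the axis put in the end bins. Both centre near 0, and the red outline is lower in the middle and wider, with an SD of 0.20 against 0.16.

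Among genes without a row, the highest ratios included Furin, a protease that matures secreted precursors, at 8.32 FPKM with doxycycline and 4.40 FPKM without it, and the muscle-type enolase gene Eno3 at 27.1 FPKM with doxycycline and 15.3 FPKM without it. Furin also stood higher in parental cells, at 5.81 FPKM with doxycycline and 3.56 FPKM without it. Acp5, the tartrate-resistant acid phosphatase of osteoclasts, stood at 4.26 FPKM with doxycycline and 2.43 FPKM without it, and the costimulatory ligand gene Cd80 at 1.85 FPKM with doxycycline and 1.07 FPKM without it. The other highest ratios, all from genes under 3 FPKM in both groups, were those of Fam131a, Cox4i2, Acsf2, Nxf7, Calhm6, Serpinb6b and Slc35a2, beside Itgax given above.

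The lowest ratios included more abundant genes. Cldn11, a tight junction protein, stood at 43.5 FPKM with doxycycline and 76.2 FPKM without it, and the membrane-associated protein gene Basp1 at 38.8 FPKM with doxycycline and 69.5 FPKM without it. Tmem158 stood at 12.4 FPKM with doxycycline and 21.3 FPKM without it, and the growth factor gene Igf1 at 9.17 FPKM with doxycycline and 15.4 FPKM without it. Summed over its 4 entries, Igf1 stood at 30.8 FPKM with doxycycline and 46.1 FPKM without it, a log2 ratio of -0.58. In parental cells Cldn11 stood at 63.3 FPKM with doxycycline and 71.1 FPKM without it, and Basp1 at 123 FPKM with doxycycline and 130 FPKM without it. Nexn, Sntb2, Serpinf1, Cdkl2, Pakap, Pitpnm2 and Pacs2 were also among the lowest ratios, and for Cdkl2 the sum over its entries had a log2 ratio of only -0.11.

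Gene lists were compared by counts and medians, with 27 lists holding at least 3 genes of 1 FPKM or more. Their medians lay between -0.22 and 0.16, 13 above 0 and 14 below. Antiviral interferon-stimulated genes had 0 calls, and 31 of 38 were on the higher side with a median log2 ratio of 0.13. Examples are the RNA sensor gene Ddx58 at 16.7 FPKM with doxycycline and 14.0 FPKM without it, the transcription factor gene Irf7 at 29.0 FPKM with doxycycline and 24.8 FPKM without it, and Isg15, a ubiquitin-like modifier, at 19.0 FPKM with doxycycline and 17.1 FPKM without it. In parental cells doxycycline went with 5 of 37 on the higher side and a median of -0.19, and with interferon-gamma CITED1 induction went with 28 of 29 on the higher side and a median of 1.23. Over all genes of at least 1 FPKM, 50.7% were on the higher side in the parental pair. In the interferon-gamma pair that share was 54.0%, with a median of 0.06. Genes of the antigen presentation list were on the higher side in 7 of 7 with a median of 0.13, among them the proteasome activator gene Psme1 at 94.2 FPKM with doxycycline and 79.3 FPKM without it, and in 2 of 7 in parental cells with a median of -0.09. Beyond these 7, histocompatibility (H2) genes went both ways, with log2 ratios of -0.28 for H2-K2 and 0.46 for H2-Q2. Interferon signalling genes had a median of 0.10 over 13, with Stat2 at 11.4 FPKM with doxycycline and 10.0 FPKM without it. In unstimulated construct cells, the ratios of the genes named here all lie under the 2-fold limit, and none has a row for that pair.

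Other than Cited1, genes of the list of CITED family members and associated factors had no row. Hif1a stood at 27.4 FPKM in both groups, Smad2 at 3.45 FPKM with doxycycline and 3.70 FPKM without it, and 7 genes of this list other than Cited1 had a median log2 ratio of -0.002. They ranged between -0.10 and 0.31, the highest being Egr2 at 1.85 FPKM with doxycycline and 1.49 FPKM without it. Cell cycle genes were on the lower side in 25 of 30 with a median log2 ratio of -0.04, among them the proliferation marker Mki67 at 38.8 FPKM with doxycycline and 40.1 FPKM without it. In parental cells 16 of 29 cell cycle genes were on the higher side. NF-kB pathway genes split 8 to 8 around a median of -0.01, and immediate early genes, 6 higher and 9 lower, around -0.01, with Ier3 lowest at 34.4 FPKM with doxycycline and 48.9 FPKM without it. Hypoxia and glycolysis genes had a median of -0.10 over 5 genes, with the glucose transporter gene Slc2a1 at 93.9 FPKM with doxycycline and 119 FPKM without it. Genes of ATF4 stress and serine synthesis were on the lower side in 7 of 8 with a median of -0.11, and in 7 of 7 with a median of -0.13 with doxycycline in parental cells. The most extreme medians were those of the TGF-beta and BMP target list, at -0.22 over 5 genes, and the osteoclast list, at 0.16 over 7 genes. With at least 5 FPKM the osteoclast median was 0.03, and the TGF-beta and BMP list had too few genes for a value. In the osteoclast list, Acp5 and the proton pump gene Atp6v0d2, at 14.0 FPKM with doxycycline and 10.9 FPKM without it, stood beside Nfatc1 at 6.51 FPKM with doxycycline and 8.48 FPKM without it.

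**Figure D5:**
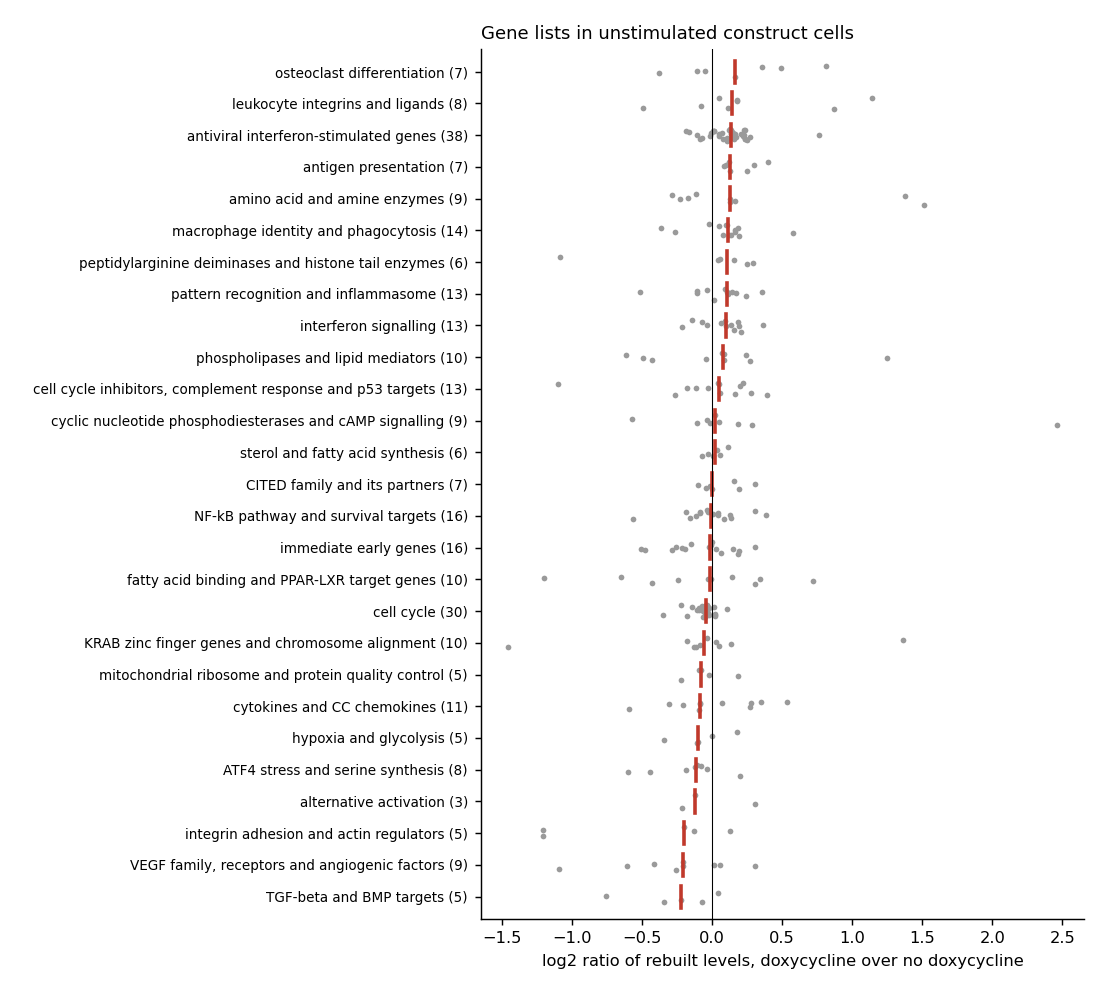
Log2 ratio of rebuilt levels, doxycycline over no doxycycline, in unstimulated construct cells for 27 gene lists: grey points are genes that reached 1 FPKM in either group (their number in brackets), red bars the list medians, and Cited1 is left out. The medians run from 0.16 for osteoclast differentiation to -0.22 for TGF-beta and BMP targets, and the points far from their list are mostly called genes.

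The macrophage label of the line could be checked in part. Of 15 macrophage markers 7 are listed and 6 have both levels (Adgre1, Itgam, Ptprc, Spi1, Cebpa and Msr1), with a summed level of 308 FPKM with doxycycline and 306 FPKM without it. Spi1, the lineage transcription factor PU.1, stood at 151 FPKM with doxycycline and 153 FPKM without it. Of 15 lymphocyte markers only Cd28 and Lck are listed, with a summed level of 0.586 FPKM with doxycycline and 0.811 FPKM without it. None of 13 neutrophil and mast cell markers and none of 14 fibroblast, epithelial and endothelial markers are listed, which shows no call in any pair and not a level of 0. On the wider list of macrophage identity and phagocytosis, 11 of 14 genes were on the higher side with a median of 0.12, led by the Fc receptor gene Fcgr4 at 17.9 FPKM with doxycycline and 11.98 FPKM without it, while the fractalkine receptor gene Cx3cr1 stood at 101 FPKM with doxycycline and 130 FPKM without it. The mitochondrial transcript mt-Nd2 stood at 678 FPKM with doxycycline and 510 FPKM without it (log2 ratio 0.41), and its log2 ratio in parental cells was 0.77. Differences in RNA quality between the groups were not tested.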

How the data were processed

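Libraries of 18 samples (6 groups of 3) were directional and made from poly(A) RNA, per the labels' protocols. Cuffdiff 2.2.1, STAR 2.5.3a, FastQC 0.11.5, edgeR and featureCounts stand in the submitters' processing notes without roles, and the sources used here do not give the build behind the table. The authors' deposited table of pairwise comparisons gives, per the file headers, a fold change (a linear ratio), a direction, a total FPKM for the pair and a deposited q-value. It has 112230 rows, of which 34824 compare the 6 groups with each other and 77406 name another group and were not used here. The smallest fold was 2 and the largest q 0.0499.

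From a row with sum T and fold F, levels were rebuilt as T/(1 + F) for the lower group and F times that for the higher one. That the deposited total is the sum of both groups is a reading made here, which no label states; it sets the levels but not the ratios. Levels from several rows were combined by the median per entry and group (4923 repeats in both groups differed by a median of 0.0509% and at most 0.624%). A gene is given by its called or else its most abundant entry. Entries without a name or with several were left out of gene counts, and biotypes and chromosomes came from GENCODE M21. Depth per sample is unknown, so no SD, interval or test could be made, and calls are the authors'. The design had named limma in case the table held values per sample, which it does not.

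All called genes are named. Genes without a row are named if among the 12 highest or 12 lowest ratios with an assigned symbol and at least 1 FPKM, or if among the extremes of a list or in a list that holds a called gene; a few others were chosen after their values were seen. Some results that this rule would name are not reported here. The members and the 33 gene lists (722 genes) were chosen with earlier results of these data known. The rebuilding was tested on simulated data without noise for this pair, with 4000 genes of which 200 were changed. All changes were past the 2-fold limit, so the recovery of 100% of them was fixed in advance. Rebuilt levels of at least 1 FPKM differed from the simulated ones by at most 0.401%. Alternatives were another q limit, level minimum, pseudocount, rescaling, entry counting and source of levels. Python 3.11.15, pandas 2.3.3 and numpy 2.4.6 were used.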

Additional observations from a re-analysis of the deposited data

Results flagged for a closer look

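Cxcl2 and Vegfc were each called lower with CITED1 induction in unstimulated cells and higher with it under interferon-gamma. The log2 ratio of doxycycline over no doxycycline with interferon-gamma minus that in unstimulated cells was 2.77 for Cxcl2 and 2.66 for Vegfc. The difference itself was not tested, since the table holds no values per sample.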

How the results depend on the processing

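At the stricter q limit of 0.01, 13 genes were called (6 higher, 7 lower) in place of 22. With log2(FPKM + 1) and at least 2-fold 4 remained, namely Cited1, Pde1b, Acy1 and Fabp4 (3 higher, 1 lower), as most members have low levels. With at least 1 FPKM 16 were called. Genes without a row at 1.5-fold or more numbered 25 (8 higher, 17 lower) with a pseudocount of 1 FPKM in place of 69. For 18 called genes, levels from other comparisons differed by at most 0.00861 on the log2 scale, which checks the rounding of the same group values and not the calls. The median over genes without a row stayed between -0.01 and -0.00 in all settings, including levels from interferon-gamma rows only, chosen after seeing the data. Leaving out Cited1 or adding a pseudocount in the other pairs, also chosen then, cannot by construction change a direction. With a pseudocount, 0 of 27 list medians moved by 0.1 or more. With at least 5 FPKM 2 of 25 did, the fatty acid list to -0.24 and the osteoclast list to 0.03. No paired analysis was possible because the table holds no values per sample, and leaving out single replicates was not run for the same reason. The limits are 1 value per group, low levels and a table of called rows only.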

Other observations

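The 69 genes without a row at 1.5-fold or more in unstimulated cells were looked up in the pairs that share no group with it. Of the 32 on the higher side, 26 have levels with interferon-gamma, where 13 were on the higher and 13 on the lower side of CITED1 induction. The authors called 5 of them higher there, among them Itgax at 58.6 FPKM with both treatments and 24.2 FPKM with interferon-gamma alone, and 4 lower, among them Eno3 at 3.35 FPKM with both treatments and 8.21 FPKM with interferon-gamma alone. Of the 37 on the lower side, 31 have such levels, 17 on the lower and 14 on the higher side, with 6 called lower, among them Cldn11 at 0.127 FPKM with both treatments and 1.47 FPKM with interferon-gamma alone, and 4 called higher, among them Sntb2 at 15.4 FPKM with both treatments and 6.23 FPKM with interferon-gamma alone. With doxycycline in parental cells, 12 of 26 genes of the higher side and 23 of 34 of the lower side went the same way, and the authors called 0 of them.

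Further values at 1.5-fold or more without a row, outside the gene lists, were those of the complement gene C3, at 7.94 FPKM with doxycycline and 5.25 FPKM without it, the translation inhibitor gene Pdcd4, at 7.80 FPKM with doxycycline and 5.14 FPKM without it, the Notch effector gene Rbpj, at 7.57 FPKM with doxycycline and 12.3 FPKM without it, and the kinase gene Plk2, at 11.0 FPKM with doxycycline and 18.4 FPKM without it. They were chosen after their values were seen.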
